A study of Homo sapiens with 6 samples.

Results

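The 50 genes described here encode the machinery that licenses replication origins and copies DNA at the fork. They were chosen by gene symbol as a module. No value of a gene entered that rule, although earlier results of these data were known when the list was drawn up. All 50 were found in the deposited table through their Ensembl identifiers, among 18318 rows that name a gene. All 50 also passed the filter on low counts, with 12797 genes tested in all. A375 cells, an established line from a human melanoma, gave all libraries. The tested cells carried a pcDNA3.1 plasmid that expressed SLNCR, a long non-coding RNA also known as LINC00673, and the controls carried the same plasmid backbone without it. Both groups were transfected with a lipid reagent. Both then grew for 48 h in 2 µg/mL puromycin, to which the plasmid gives resistance, and the plasmid holds the strong CAG promoter. Total RNA was depleted of ribosomal RNA and read from both ends at 150 bases, with 3 libraries per group. In the labels these are biological replicates, with no word on separate cultures, so p-values measure the spread between these libraries, which may be technical. The study asked which genes SLNCR regulates, and its title names the transcription factor E2F1.

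Replication starts in G1, when the origin recognition complex, CDC6 and CDT1 load the MCM2-7 helicase onto DNA. Geminin, encoded by GMNN, binds CDT1 and prevents a second loading in the same cycle. In S phase CDC45 and the GINS complex join MCM2-7 to form the active helicase, and polymerases, the PCNA clamp and its loaders, nucleotide synthesis and histone chaperones follow the fork. Many of these genes are textbook targets of E2F transcription factors and peak in expression around the entry into S phase. In bulk RNA, fewer cells in S phase and less RNA per cell cannot be told apart.

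E2F motifs in the promoters are shown because the study concerns E2F1. The motifs searched were TTTCCCGC, TTTGGCGC, TTTCGCGC and TTTGCCGC, on both strands, in the 250 bases before each RefSeq start (GRCh38.p14). TTTGGCGC and the reverse of TTTCGCGC overlap in the run TTTGGCGCGAAA. RefSeq promoters were matched for 45 of the 50 genes, and 18 of these 45 (40%) held at least 1 motif. The share was 5.59% of the 9962 tested genes with a promoter (557 genes) and 3.40% of all 27305 genes with one. MCM4, MCM5, ATAD2, DSCC1 and RPA2 had no entry. Shown on the coding strand are the 30 bases around 1 motif for each of the 6 genes past the test's threshold that hold one, and the whole window of MCM6, which holds 4 matches in 2 such runs. Capitals mark the motif. Only 30 bases are given where the RefSeq window overlaps an exon in GENCODE 29.
CDT1 (chr16:88803743-88803772, plus strand, motif 35 bases before the start): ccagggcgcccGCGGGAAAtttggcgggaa
GMNN (chr6:24775322-24775351, plus strand, 80 bases before): gctgggtcggtTTTGGCGCgctctcacttc
DTL (chr1:212035718-212035747, plus strand, 8 bases before): caatcagagagcgtgacgtcagTTTGGCGC
MCM7 (chr7:100101566-100101595, minus strand, 187 bases before): cagctcggaccGCGGGAAAcccggcgcctg
LIG1 (chr19:48170440-48170469, minus strand, 114 bases before): acttcacccctTTTCCCGCcctcctcccat
UHRF1 (chr19:4909471-4909500, plus strand, 14 bases before): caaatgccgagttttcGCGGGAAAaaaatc
MCM6 (chr2:135876444-135876693, minus strand): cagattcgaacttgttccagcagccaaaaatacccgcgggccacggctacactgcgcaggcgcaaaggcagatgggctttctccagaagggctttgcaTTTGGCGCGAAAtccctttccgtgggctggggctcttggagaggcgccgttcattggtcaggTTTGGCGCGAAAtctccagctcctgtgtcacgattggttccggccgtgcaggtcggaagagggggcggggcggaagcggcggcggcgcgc

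GCGGGAAA in these lines is TTTCCCGC read on the other strand. Of the 18 genes with a motif 2 were higher and 4 were lower with SLNCR, with a median log2 fold change of -0.04. Of the 27 without one 1 was higher and 2 were lower, with a median of -0.06. Over all genes tested 8.84% were higher and 7.67% lower. The median GC content of the transcripts was 49.5% for genes with a motif and 45.8% for genes without, and with a correction for GC content the median log2 fold changes were -0.04 and 0.00. A match is only a match of letters in this window.

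The base composition of the transcripts matters for the results below, and CDT1 and GMNN, partners in licensing, lie far apart in it. The first 120 bases of their coding sequences (GENCODE 29, GRCh38) are given with every G and C in capitals. They are 81.7% and 37.5% of the bases shown. Over the longest transcript, the measure used for the results below, GC content is 64.9% for CDT1 and 43.6% for GMNN, which is a smaller gap.
CDT1: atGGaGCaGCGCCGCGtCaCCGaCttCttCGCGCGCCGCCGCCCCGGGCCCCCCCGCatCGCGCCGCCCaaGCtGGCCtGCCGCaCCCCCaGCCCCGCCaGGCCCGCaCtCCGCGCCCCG
GMNN: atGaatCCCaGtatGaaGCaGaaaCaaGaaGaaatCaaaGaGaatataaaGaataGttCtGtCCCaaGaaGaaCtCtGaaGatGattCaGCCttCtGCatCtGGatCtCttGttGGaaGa

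The libraries held between 9287450 and 10822083 counts. LINC00673 had 1786, 2569 and 2040 counts in the SLNCR libraries, against 195, 194 and 193 in the empty vector libraries, a log2 rise of 3.38 (SE 0.147, adjusted p = 3.11e-05 by edgeR), which goes with the labels. E2F1 itself had 38.9, 43.1 and 35.3 CPM with SLNCR, against 52.4, 46 and 48.0 CPM with the empty vector (CPM, counts relative to library size after TMM scaling), and it fell by 0.32 (SE 0.0852, edgeR adjusted p = 0.0218). The labels give the cell type as epithelial, but 9 of 12 epithelial markers were below 1 CPM. The summed level of the 12 was 52.4 to 55.3 CPM with SLNCR and 50.4 to 54.8 CPM with the empty vector, most of it from DSP. Of 13 melanoma markers 10 were in the table, with a sum of 1140 to 1190 CPM with SLNCR and 1190 to 1220 CPM with the empty vector. AXL carried this sum, with 811 to 858 CPM with SLNCR and 857 to 878 CPM with the empty vector. Of the 10, 2 (PMEL and DCT) were below 1 CPM on average. MLANA had 1.06 to 1.55 CPM with SLNCR and 1.32 to 1.66 CPM with the empty vector. Fibroblast and endothelial markers summed to 13.9 to 16.3 CPM with SLNCR and 14.7 to 18.3 CPM with the empty vector. Of 6 blood markers 3 were in the table, summing to 1.14 to 1.55 CPM with SLNCR and 0.690 to 1.32 CPM with the empty vector. None of these markers passed the test where tested. Neither did 12 tested small or nuclear non-coding RNAs taken as a sign of RNA quality, with sums of 31100 to 33500 CPM with SLNCR and 31900 to 36500 CPM with the empty vector. RN7SK was the largest part (15700 to 16800 and 15500 to 17000 CPM), so the sum can hide shifts of others. RN7SL1 (2200 to 3390 and 3130 to 4160 CPM) and RN7SL2 (1050 to 2180 and 2160 to 3090 CPM) had lower, slightly overlapping ranges with SLNCR. The range of RNU12 was higher (3.65 to 5.43 and 2.63 to 4.34 CPM).

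Replication genes differed little between SLNCR cells and empty vector cells. With SLNCR 4 of the 50 genes rose (GMNN, DTL, PRIM1 and ATAD2), 7 fell (CDT1, MCM5, MCM7, POLD1, LIG1, CHAF1A and UHRF1) and 39 missed an edgeR adjusted p of 0.05. The background over all genes tested was 8.84% higher and 7.67% lower, 16.5% in all (2112 genes). The 50 log2 fold changes lay between -0.38 and 0.24, with a median of -0.05, against -0.01 over all genes tested. The values of the groups did not overlap for 13 genes with higher and 11 with lower values in SLNCR libraries, 48.0% of the 50. Over all genes tested the shares were 19.7% and 19.1%, or 38.9% together. The genes are well counted, with a median mean count of 830 per library against 308 over all genes tested.

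Levels are compared between genes only per kb of the longest transcript. That transcript need not be the one most expressed, and which transcripts these cells used was not tested. The order of genes and the ratios between genes below are therefore approximate. PCNA, the sliding clamp, was the most abundant, with 218 CPM per kb in SLNCR cells and 204 in empty vector cells. MCM4 followed with 153 CPM per kb in SLNCR cells and 147 in empty vector cells, then RRM2 with 138 in SLNCR cells and 131 in empty vector cells. MCM7 and TYMS came next, at 96.2 and 96.9 CPM per kb in SLNCR cells and 119 and 102 in empty vector cells. The lowest were WDHD1, with 5.74 CPM per kb in SLNCR cells and 5.19 in empty vector cells, and CHAF1B with 4.98 and 5.01. The spread between replicates was small, with a median coefficient of variation of 4.57% among SLNCR libraries and 4.59% among empty vector libraries. RPA2 varied most among the SLNCR libraries (18.7%), and GINS2 among the empty vector libraries (11%).

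**Figure D1:**
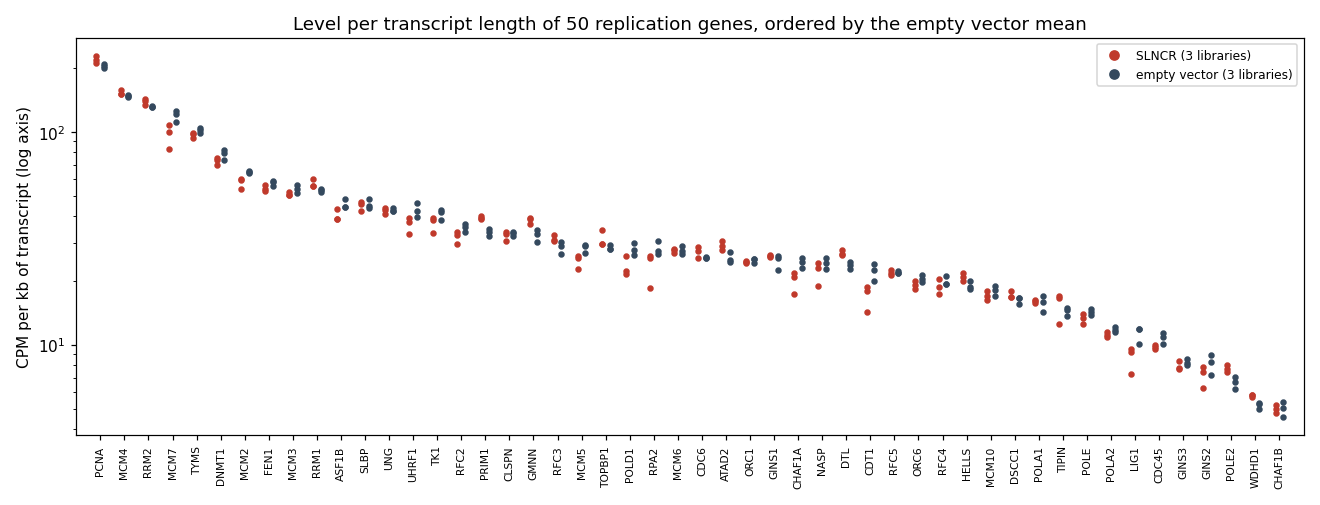
Level of each of the 50 genes in CPM per kb of longest transcript (log axis), 1 point per library, SLNCR to the left of empty vector within each gene and genes ordered by the empty vector mean. The level runs from PCNA (218 with SLNCR, 204 with empty vector) to CHAF1B (4.98 and 5.01), and the colours nearly coincide along the whole order.

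The direction of the 11 genes past the threshold followed the base composition of their transcripts. The 4 higher genes have a GC content of 39.1% to 43.6%, and the 7 lower genes one of 54.6% to 65.0%. Across the 50 genes the log2 fold change and GC content had a Pearson r of -0.82 and a Spearman rho of -0.84, and across 12790 tested genes r was -0.64 (genes share libraries and are not independent, so no p is given). Among the 20 genes below 45% GC 4 were higher (20%) and 0 lower, against 21.5% and 0.40% of all tested genes in that band. Their median log2 fold change was 0.09, against 0.16 over all genes there. Among the 11 genes with 55% GC or more 0 were higher and 6 lower (54.5%), against 0.0561% and 22.6% of all genes in the band. The medians there were -0.20 for the 11 genes and -0.21 for all genes, while the median mean counts were 873 and 240. The 19 genes between held 0 higher and 1 lower gene, UHRF1, against 1.25% and 3.66% of all genes there.

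A second fit removed the trend with GC content from each library. It called 0 of the 50 genes at an edgeR adjusted p of 0.05, and 2 of all genes tested (0.0156%). LINC00673, the transfected RNA, had no GC value here, so this fit treated it as a gene of median GC content. Its unchanged log2 change of 3.38 (SE 0.201) therefore says nothing about its own GC content. Its edgeR adjusted p in this fit was 0.0538, so a gene that misses the threshold here is not shown to be without a change. The smallest adjusted p among the 50 was 0.18, that of LIG1. At an unadjusted p of 0.05 the corrected fit called 5 genes (10.0%), GMNN, MCM7, MCM10, LIG1 and UHRF1, against 15.1% of all genes tested. The median size of the change, ignoring its sign, was 0.105 before and 0.054 after correction for the 50 genes, and 0.164 and 0.089 for all genes. The sign changed for 19 of the 50, and r with GC content was -0.01 after correction. E2F1, with 62.5% GC, had a corrected change of -0.08 (adjusted p = 0.588). Whether the trend with GC content arose in the cells or in the libraries was not tested.

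**Figure D2:**
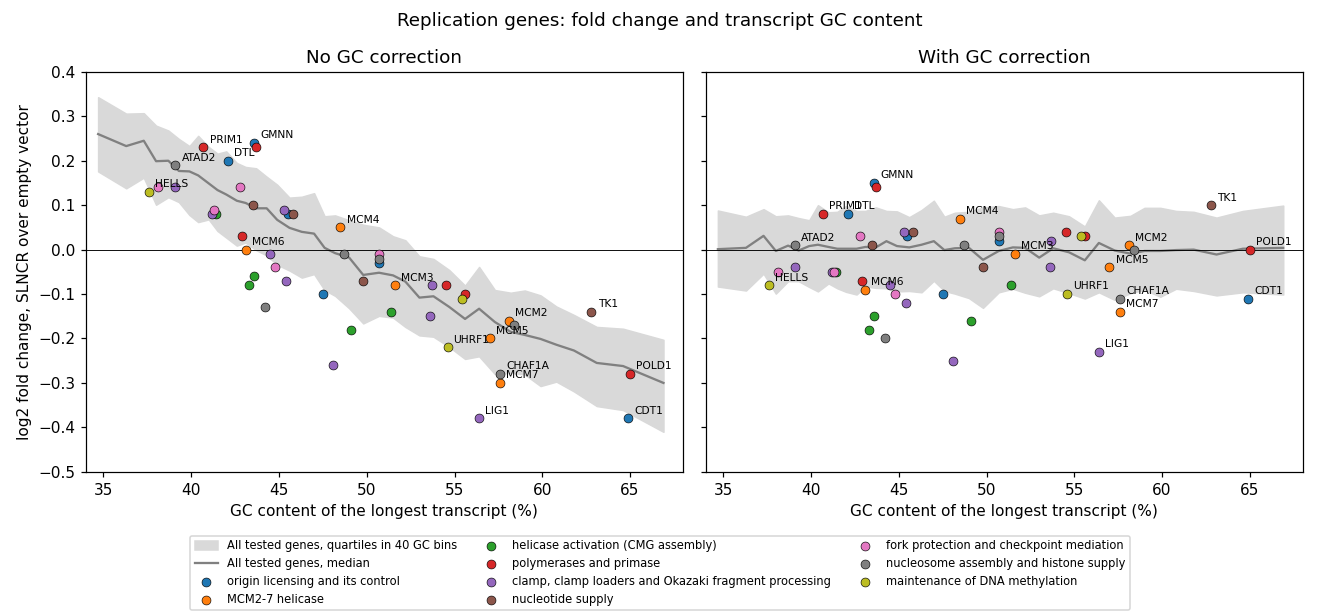
Log2 fold change, SLNCR over empty vector, of the 50 genes (points, coloured by role) against the GC content of the longest transcript in percent, without (left) and with (right) GC correction. The grey line and band are the median and quartiles of all tested genes in 40 GC bins. On the left the points follow the grey trend, from HELLS (37.6% GC, 0.13) to POLD1 (65.0% GC, -0.28), and on the right they lie between -0.25 and 0.15 with no slope.

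One library stood further out than the rest. SLNCR replicate 3 was the SLNCR library furthest from the empty vector mean for 32 of the 50 genes and for 9 of the 11 past the threshold. The median deviation of the 11 genes with 55% GC or more from the empty vector mean was -0.22, -0.11 and -0.33 log2 units in SLNCR replicates 1, 2 and 3, against 0.07, 0.02 and -0.09 in empty vector replicates 1, 2 and 3. After GC correction the SLNCR values were -0.06, 0.02 and -0.02. Without SLNCR replicate 3, 6 of the 11 genes still passed (CDT1, DTL, MCM7, PRIM1, POLD1 and LIG1). None of the 50 passed without SLNCR replicate 1, empty vector replicate 1 or empty vector replicate 2, 9 passed without empty vector replicate 3, and 14 without SLNCR replicate 2. The calls over all genes tested moved in the same way. Without SLNCR replicate 3, 807 of all genes were higher and 710 lower. In each of the 3 fits with none of the 50, at most 1 of all genes was higher and 1 lower. The counts were 1007 and 877 without empty vector replicate 3, and 1722 and 1644 without SLNCR replicate 2. DESeq2 on all 6 libraries called 8 of the 11, all but GMNN, MCM5 and PRIM1, and GMNN was also lost with upper quartile factors. Of all genes DESeq2 called 913 higher and 720 lower, against 1131 and 981 in the main fit. With upper quartile factors these counts were 1023 and 1062.

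**Figure D3:**
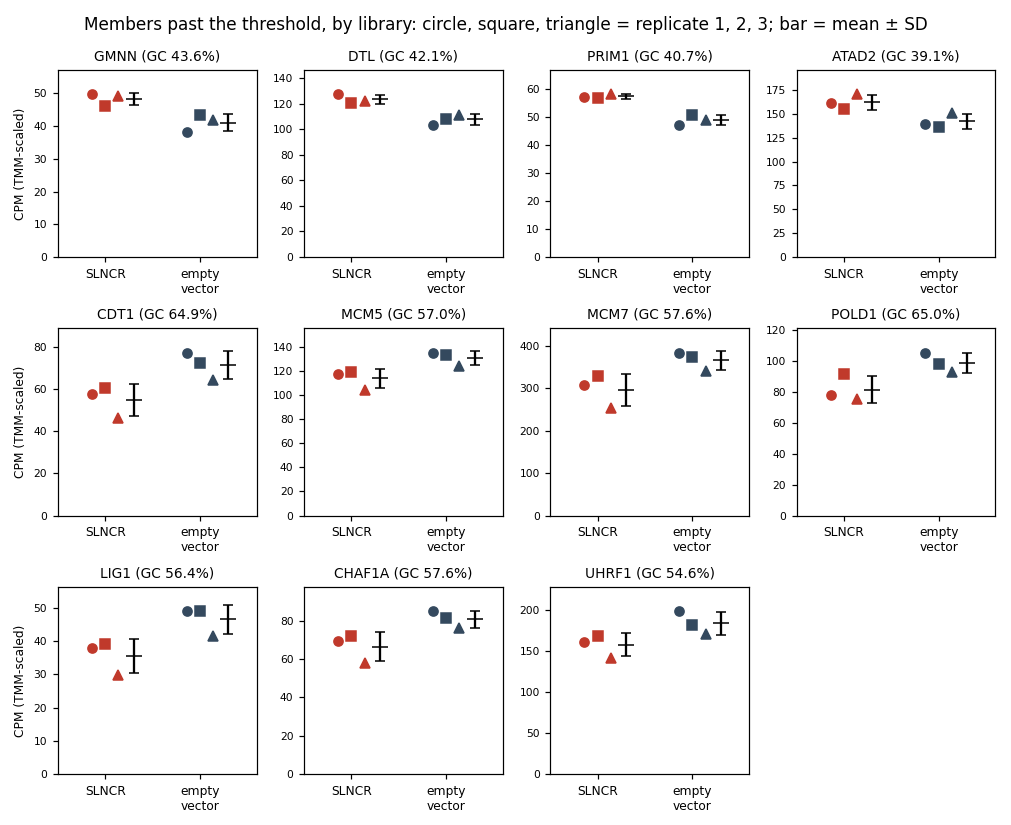
CPM of the 11 genes past the threshold in each library, SLNCR left and empty vector right, with circle, square and triangle for replicates 1, 2 and 3 and a bar for mean ± SD (n = 3 per group). The groups do not overlap in any panel, and the triangle of SLNCR replicate 3 is the lowest SLNCR point in each of the 7 panels of lower genes.

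Among the 6 licensing genes CDT1 fell while its inhibitor GMNN and DTL rose. CDT1 (ENSG00000167513, chr16:88803213-88809258), the factor that loads MCM2-7, had 57.5, 60.7 and 46.2 CPM with SLNCR, against 77.3, 72.4 and 64.4 CPM with the empty vector. All 3 SLNCR libraries were below all 3 controls. The log2 change was -0.38, with an SE of 0.0935 (edgeR adjusted p = 0.0181), and -0.11 (SE 0.0641, adjusted p = 0.444) after GC correction. GMNN (ENSG00000112312, chr6:24774931-24786099), which encodes geminin, had 49.8, 46.3 and 49.1 CPM with SLNCR and 38.1, 43.4 and 41.8 CPM with the empty vector. Every SLNCR library was above every control, by 0.24 on average (SE 0.0769, edgeR adjusted p = 0.0447). After correction 0.15 remained (SE 0.0692, adjusted p = 0.309). DTL (ENSG00000143476, chr1:212035553-212107400), the substrate receptor of the CUL4 ligase that marks CDT1 for destruction in S phase, had 127.5, 120.3 and 122.2 CPM with SLNCR, against 103.2, 108.3 and 111.5 CPM. It rose by 0.20 (SE 0.0589, edgeR adjusted p = 0.0335), and the corrected value was 0.08. The pseudogene RPL21P28 lies on the opposite strand within DTL, and the strand setting of the counting is not given in the sources used here.

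Read together per transcript length, the CDT1 level was 0.450, 0.511 and 0.367 times the GMNN level in SLNCR replicates 1, 2 and 3, and 0.790, 0.650 and 0.600 times in the empty vector replicates. The ratio had to be lower in every SLNCR library, because CDT1 lay below and GMNN above all controls there. It is therefore a restatement of those values and no added support. As a difference in log2 CPM, CDT1 minus GMNN averaged 0.17 with SLNCR and 0.79 with the empty vector. After GC correction the means were 0.35 and 0.61, with 0.35, 0.45 and 0.26 in the SLNCR libraries against 0.74, 0.55 and 0.54 in the controls, which still did not overlap. The pair was singled out after its values were seen, so no test is given. ORC1 and ORC6, subunits of the origin recognition complex, had log2 fold changes of -0.03 and -0.10 (edgeR adjusted p = 0.769 and 0.403). CDC6, which recruits CDT1 to origins, had 0.08 (SE 0.0595, adjusted p = 0.357).

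Of the 6 subunits of the MCM2-7 ring, the replicative helicase, MCM5 and MCM7 fell and the others did not pass. MCM7 (ENSG00000166508, chr7:100092728-100101940) had 307, 329 and 255 CPM with SLNCR, against 384, 373 and 341 CPM with the empty vector. The groups were apart, with SLNCR replicate 3 lowest, and the change was -0.30 (SE 0.0790, edgeR adjusted p = 0.0249). After GC correction it was -0.14 (SE 0.0512, unadjusted p = 0.0159, adjusted p = 0.218). MCM7 overlaps AP4M1 on the opposite strand and hosts the microRNA genes MIR106B, MIR93 and MIR25, whose own rows held only 1 to 16 counts per library. MCM5 (ENSG00000100297, chr22:35400063-35425430) had 117.7, 119.4 and 104.3 CPM with SLNCR, against 135.3, 133.5 and 124.1 CPM. It fell by 0.20 (SE 0.0647, edgeR adjusted p = 0.0427), with a corrected value of -0.04.

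MCM2 missed the threshold narrowly. It had 214, 218 and 195 CPM with SLNCR, against 237, 234 and 231 CPM with the empty vector, with no overlap. The log2 change of -0.16 had an SE of 0.0550 (edgeR adjusted p = 0.0503), and was 0.01 after correction. MCM2 overlaps TPRA1 on the opposite strand. MCM3 had 161, 167 and 163 CPM with SLNCR and 165, 180.2 and 172 CPM with the empty vector, which overlap. MCM4, the most abundant subunit, had 632, 626 and 657 CPM with SLNCR and 625, 617 and 606 CPM with the empty vector, a change of 0.05 (SE 0.0447, adjusted p = 0.427). Its SLNCR libraries were all above its controls, by little, and its corrected value was 0.07. MCM6 had 104.7, 104.1 and 100.8 CPM with SLNCR and 102.2, 99.0 and 107.8 CPM with the empty vector, a change of 0.00 (SE 0.0599), or -0.09 after GC correction (SE 0.0521, adjusted p = 0.401). The groups of MCM6 overlap.

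The ring holds its subunits in equal number, but their RNA levels per length of the longest transcript were unequal. MCM4 was 6.20 ± 0.635 times MCM5 in SLNCR cells and 5.18 ± 0.167 times in empty vector cells (SD, n = 3 each). MCM4 over MCM6 was 5.53 ± 0.254 in SLNCR cells and 5.35 ± 0.288 in empty vector cells. These ratios depend on the transcript lengths used and are not corrected for GC content. The GC-corrected log2 fold changes of MCM4 and MCM5 were 0.07 and -0.04. The median log2 fold change of the 6 subunits was -0.12, and -0.03 after GC correction.

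**Figure D4:**
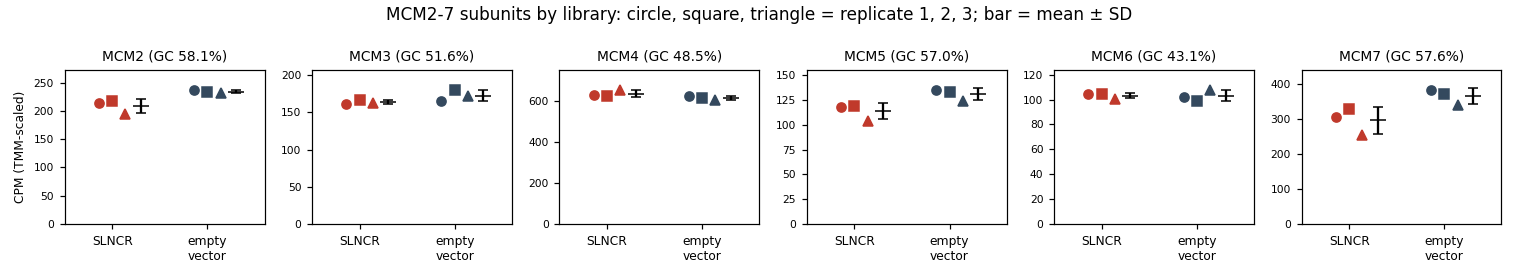
CPM of the 6 MCM2-7 subunits in each library, SLNCR left and empty vector right, with circle, square and triangle for replicates 1, 2 and 3 and a bar for mean ± SD (n = 3 per group, axes from 0). MCM7 and MCM5 (57.6% and 57.0% GC) lie lower with SLNCR, the groups of MCM6 (43.1% GC) overlap, and those of MCM4 (48.5% GC) do not, with SLNCR slightly higher.

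None of the 5 genes that turn the loaded ring into an active helicase passed the test. All 5 were below 0 after GC correction, between -0.18 and -0.05, as were 28 of the 50 genes and 6332 of all 12797 genes tested. With the mean GC content of each gene's transcripts in the correction, the 5 lay between -0.15 (MCM10) and -0.02 (GINS1 and GINS3). The GINS complex has 4 subunits and binds the side of the ring. GINS1 had 83.6, 85.6 and 85.0 CPM with SLNCR, against 73.1, 82.7 and 85.1 CPM with the empty vector, which overlap (log2 fold change 0.08, adjusted p = 0.433). GINS2 had 19.8, 21.0 and 16.7 CPM with SLNCR, against 22.1, 24.0 and 19.3 CPM (-0.18, SE 0.113, edgeR adjusted p = 0.261), and overlaps GSE1 on the opposite strand. GINS3 had 26.7, 24.5 and 24.8 CPM with SLNCR, against 26.3, 27.3 and 25.6 CPM (-0.06, adjusted p = 0.656). GINS4, one of 56 other replication genes examined beside the 50, had 22.4, 23.2 and 21.1 CPM with SLNCR, against 24.2, 26.3 and 28.8 CPM, with no overlap (-0.25, SE 0.0954, edgeR adjusted p = 0.0798). The GC-corrected value of GINS4 was -0.24, and those of GINS1, GINS2 and GINS3 were -0.05, -0.16 and -0.15. CDC45, which completes the active helicase, had a log2 fold change of -0.14 and MCM10, which helps to activate it, one of -0.08. MCM10 went to -0.18 after correction (SE 0.0642, unadjusted p = 0.0125, edgeR adjusted p = 0.198).

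Among the polymerase genes PRIM1 rose and POLD1 fell. PRIM1 (ENSG00000198056, chr12:56731596-56752373), the catalytic subunit of primase, which lays the RNA primers, had 57.3, 56.8 and 58.3 CPM with SLNCR, against 47.4, 50.9 and 49.1 CPM with the empty vector. The groups were well apart, with a rise of 0.23 (SE 0.0688, edgeR adjusted p = 0.0352), which was 0.08 after correction. PRIM1 overlaps NACA and, on the opposite strand, HSD17B6. POLD1 (ENSG00000062822, chr19:50384204-50418016), the catalytic subunit of the lagging strand polymerase, had 77.9, 91.3 and 75.1 CPM with SLNCR, against 105.3, 97.9 and 92.8 CPM. Its highest SLNCR library lay close to the lowest control. POLD1 fell by 0.28 (SE 0.0765, edgeR adjusted p = 0.0252), and its corrected value was -0.00 (SE 0.0552). With 65.0% POLD1 has the highest GC content of the 50.

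POLE2, a small subunit of the leading strand polymerase, had 14.4, 13.4 and 13.7 CPM with SLNCR, against 11.1, 11.9 and 12.6 CPM. All SLNCR libraries were above the controls, yet at this depth the log2 fold change of 0.23 had an SE of 0.115 (edgeR adjusted p = 0.174). POLE, the catalytic subunit of that polymerase, had -0.10 (adjusted p = 0.236). POLA1 and POLA2, the subunits of the polymerase that extends primers, had 0.03 and -0.08.

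LIG1 was the only gene past the threshold among the 9 of the clamp, clamp loader and Okazaki fragment group. LIG1 (ENSG00000105486, chr19:48115445-48170603), the ligase that seals Okazaki fragments, had 37.8, 39.2 and 29.8 CPM with SLNCR, against 48.9, 49.0 and 41.6 CPM with the empty vector. The SLNCR libraries were all lower, and the change was -0.38 (SE 0.0994, edgeR adjusted p = 0.0209). After GC correction it was -0.23 (SE 0.0809, unadjusted p = 0.0095, adjusted p = 0.18). FEN1, the nuclease that trims the flap before ligation, had -0.08 (adjusted p = 0.309). PCNA had 295, 285 and 308 CPM with SLNCR, against 272, 278 and 284 CPM, which do not overlap, and gave 0.09 on the log2 scale, with an SE of 0.0506 (edgeR adjusted p = 0.208).

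The loaders of PCNA showed both signs. RFC3 had 74.8, 73.7 and 78.6 CPM with SLNCR, against 64.2, 69.5 and 72.8 CPM, and a log2 fold change of 0.14 (edgeR adjusted p = 0.161) that was -0.04 after correction. RFC2, RFC4 and RFC5 had -0.15, -0.07 and -0.01, and DSCC1, of the alternative loader linked to cohesion, had 0.08. None of these passed. RFC4, RFC5 and FEN1 overlap EIF4A2, WSB2 and TMEM258 on the opposite strand, so their counts are uncertain in the same way as that of DTL. RPA2, a subunit of the protein that coats single-stranded DNA, had 44.9, 45.9 and 32.2 CPM with SLNCR, against 46.6, 53.4 and 47.9 CPM. SLNCR replicate 3 lay far below the rest, and the change came to -0.26 (SE 0.110, edgeR adjusted p = 0.109), or -0.25 after correction. PCNA, RFC3, RFC5, RPA2, FEN1, RRM2, TYMS and UNG have named pseudogenes in GENCODE 29, so reads of these 8 genes may be split or shared and their values are less certain.

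None of the 4 genes of nucleotide supply passed. RRM1, the large subunit of ribonucleotide reductase, had 176, 175 and 190.5 CPM with SLNCR, against 165, 169 and 171 CPM with the empty vector, all higher with SLNCR (0.10, SE 0.0550, edgeR adjusted p = 0.209). RRM2, its small subunit, had 0.08 (SE 0.0461, adjusted p = 0.219). RRM2 over RRM1 per length was 2.43 ± 0.187 in SLNCR cells and 2.45 ± 0.0406 in empty vector cells (SD, n = 3 each). TK1, which salvages thymidine, had 64.9, 66.1 and 56.5 CPM with SLNCR, against 70.5, 71.8 and 64.8 CPM, which overlap. Its log2 fold change was -0.14 (edgeR adjusted p = 0.189), and 0.10 after correction, so the sign turned. TYMS, which makes thymidylate, had -0.07 (adjusted p = 0.367), and its locus overlaps TYMSOS and ENOSF1 on the opposite strand.

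The 5 genes grouped under fork protection and checkpoint mediation, with UNG placed among them, did not pass either. TOPBP1, an activator of the ATR checkpoint kinase, had 183, 182 and 212 CPM with SLNCR, against 172, 173 and 180.3 CPM with the empty vector, with SLNCR replicate 3 high (0.14, edgeR adjusted p = 0.134). WDHD1, which tethers polymerase alpha to the helicase, had 34.1, 34.6 and 34.6 CPM with SLNCR, against 31.6, 31.9 and 29.9 CPM (0.14, adjusted p = 0.202). Both sets were apart, and the GC-corrected values were 0.03 for TOPBP1 and -0.05 for WDHD1. CLSPN, a mediator of that checkpoint, had 160.6, 156.9 and 145.6 CPM with SLNCR, against 159.5, 154.4 and 161.1 CPM (-0.04, adjusted p = 0.673). TIPIN, a fork protection factor, had 0.09 and UNG, which removes uracil from DNA, -0.01.

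Among the 6 genes of nucleosome assembly CHAF1A fell and ATAD2 rose. CHAF1A (ENSG00000167670, chr19:4402662-4445018), the large subunit of the chaperone CAF-1, which deposits histones behind the fork, had 69.2, 72.1 and 57.9 CPM with SLNCR, against 85.0, 81.4 and 76.1 CPM with the empty vector. The groups were apart, by -0.28 (SE 0.0796, edgeR adjusted p = 0.0274), and by -0.11 after correction. CHAF1A overlaps UBXN6 on the opposite strand. CHAF1B, another subunit of the same complex, had -0.01 (SE 0.0967, adjusted p = 0.952). ATAD2 (ENSG00000156802, chr8:123319850-123416350), a chromatin ATPase with a bromodomain, had 161, 155 and 171 CPM with SLNCR, against 139, 136 and 151 CPM. It rose by 0.19 (SE 0.0601, edgeR adjusted p = 0.0400), and its corrected value was 0.01 (SE 0.0444). The microRNA gene MIR548AA1 lies on its opposite strand. ASF1B, a chaperone of H3 and H4, had -0.17 (edgeR adjusted p = 0.0798) with no overlap between groups, and 0.00 after correction. NASP, a chaperone of free histones, had -0.13 and SLBP, which binds histone messenger RNA, -0.02. NASP had a corrected value of -0.20 (SE 0.0962, adjusted p = 0.355).

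UHRF1 fell among the 3 genes of maintenance methylation. UHRF1 (ENSG00000276043, chr19:4903080-4962154), which brings DNMT1 to hemimethylated DNA, had 162, 169 and 142 CPM with SLNCR, against 199, 182 and 171 CPM with the empty vector. Its highest SLNCR library was just under its lowest control, and the change was -0.22 (SE 0.0697, edgeR adjusted p = 0.0390), or -0.10 after correction (SE 0.0503, unadjusted p = 0.0491). DNMT1, the maintenance methyltransferase, had -0.11 (SE 0.0521, adjusted p = 0.159) and 0.03 after correction. HELLS, a chromatin remodeller needed for methylation, had 103.3, 99.0 and 108.2 CPM with SLNCR, against 93.2, 90.9 and 99.3 CPM, which overlap. Its log2 fold change of 0.13 (edgeR adjusted p = 0.147) was -0.08 after correction.

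**Figure D5:**
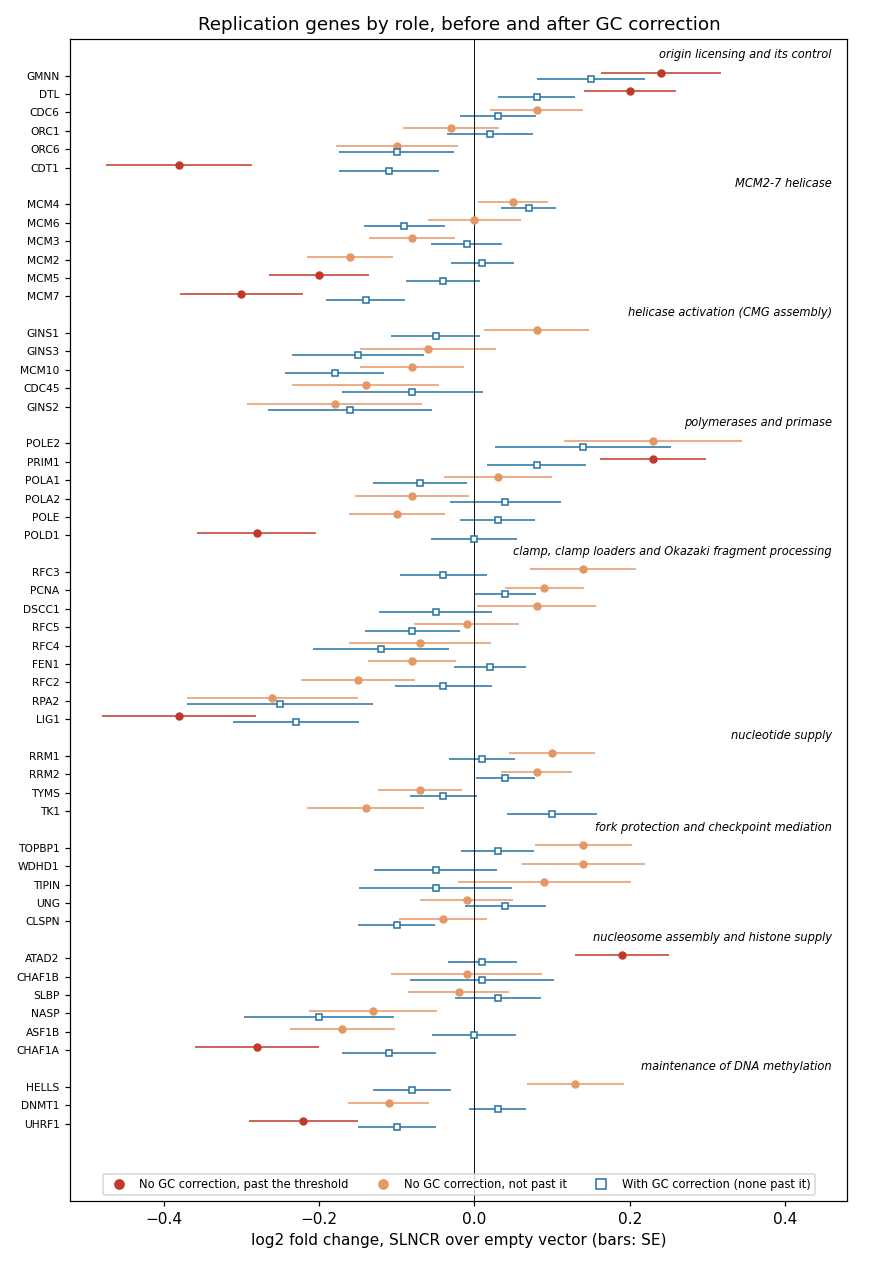
Log2 fold change, SLNCR over empty vector, of the 50 genes grouped by role, without GC correction (filled circles, dark where past the threshold) and with it (open squares), with bars for the SE. The 11 dark circles run from -0.38 (CDT1, LIG1) to 0.24 (GMNN), and 0 squares are past the threshold.

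In a list of 56 other replication genes 8 rose with SLNCR, 3 fell and 45 missed the threshold. The background over all genes tested was 8.84% higher and 7.67% lower. The median log2 fold change of the 56 was 0.06, and -0.01 after GC correction, when 0 of the 56 passed edgeR's adjusted p of 0.05. At an unadjusted p of 0.05 the corrected fit called 13 of the 56 (23.2%), against 15.1% of all genes tested. The 56 are poorer in GC, with a median of 42.6% against 47.8% for the 50 genes, and r between log2 fold change and GC content was -0.81. All 8 rises were among the 35 of them below 45% GC, or 22.9%, against 21.5% of all tested genes in that band. Of the 12 between 45% and 55% GC 2 fell (16.7%, against 3.66% of all genes there). Of the 9 with 55% GC or more 1 fell (11.1%, against 22.6%). The 4 rises with the smallest adjusted p were of low GC content. CMPK1, a kinase of pyrimidine nucleotides, had 248, 229.7 and 278 CPM with SLNCR, against 195, 191 and 202 CPM (0.36, SE 0.0635, edgeR adjusted p = 0.0137). CUL4B, a scaffold of the ligase that DTL serves, rose by 0.30 (adjusted p = 0.0139), ASF1A, the paralog of ASF1B, by 0.33 (0.0202) and DCK, which salvages deoxycytidine, by 0.34 (0.0304). Their GC-corrected values were 0.15, 0.09, 0.08 and 0.16. RRM2B, DBF4, ATAD5 and SKP2, named here after their values were seen, also rose, by 0.23 to 0.28. After GC correction these 4 genes had 0.02, 0.08, 0.06 and 0.09.

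The falls were of RNASEH2A, RECQL4 and SSRP1. RNASEH2A, the catalytic subunit of the enzyme that removes ribonucleotides from DNA, had 36.6, 38.2 and 28.9 CPM with SLNCR, against 49.5, 42.1 and 41.8 CPM. It fell by 0.36 (SE 0.101, edgeR adjusted p = 0.0274), and with a GC content of 51.5% its corrected value was still -0.29 (unadjusted p = 0.00359, adjusted p = 0.133). RECQL4, a helicase involved in origin firing, fell by 0.35 (edgeR adjusted p = 0.0159) and had a corrected value of -0.07. SSRP1, a subunit of the histone chaperone FACT, fell by 0.15 (edgeR adjusted p = 0.0424) and had a corrected value of -0.09. Of the other turnover factors of CDT1, CUL4A and DDB1, both partners of DTL, had -0.08 and -0.03 (adjusted p = 0.323 and 0.717). SKP2, the receptor of another ligase, rose by 0.23 (adjusted p = 0.0320). After GC correction CUL4A, DDB1 and SKP2 had -0.20, 0.07 and 0.09 (edgeR adjusted p = 0.0988, 0.348 and 0.381). That of CUL4A was the smallest corrected adjusted p of the 56 genes.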

How the data were processed

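The authors deposited whole-number raw counts per gene for 6 libraries. The submitters' processing notes name cutadapt, STAR, DESeq2 1.24.07 and build GRCh38, with no role or order. For the counter, annotation and strand setting the sources used here give nothing. Rows that name no gene (2.15% to 2.59% of counts per library) and 63 repeats in 22 runs of identical neighbouring rows were left out. GENCODE 29 gave symbols, coordinates, and the length and GC content of the longest transcript. edgeR 4.0.16 (R 4.3.3, TMM, filterByExpr, robust quasi-likelihood F-test, two-sided, Benjamini-Hochberg over 12797 genes, threshold 0.05) compared the groups, and the workflow was tested on simulated data. SEs were derived from each F statistic. The GC correction subtracted a per-library loess curve (span 0.5, degree 2, genes with mean log2 CPM above 1) as offsets. limma 3.58.1 (voom) and DESeq2 1.42.0 were alternatives.

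Replicates of a group differed beyond sampling noise (chi-square per degree of freedom 1.74 to 6.58). The genes and lists were chosen with earlier results of these data known. Values per library are given for genes past the threshold, for every MCM2-7 and GINS subunit, and for the extremes of each role. Among companion genes, up to 4 past the threshold per direction are named by rule. RRM2B, DBF4, ATAD5, SKP2, CUL4A and DDB1 are named outside it, after their values were seen. PCNA and RPA2 are given per library outside this rule, as is the CDT1 to GMNN ratio.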

Additional observations from a re-analysis of the deposited data

How the results depend on the processing

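Upper quartile factors, DESeq2's kind of size factors, a stricter filter and limma-voom left all counts within 1.5 times of those reported, and the median of the 50 genes kept its sign under every setting. DESeq2 called 2 of the 50 genes higher, with 913 of all genes higher and 720 lower. The fit without a filter called 14 companion genes higher, with 1669 of all genes higher and 1235 lower. At an adjusted p of 0.10, 1838 genes were higher and 1804 lower, and 14 companion genes were higher and 8 lower. The GC correction, by loess or in 20 bins, left 1 gene higher and 1 lower, with 0 of the 50 genes and 0 companion genes in either direction. With the mean GC content of all transcripts 44 genes were higher and 21 lower, with 0 of the 50 and 1 companion gene higher and 0 lower. The labels do not say whether the replicate numbers pair the libraries, and the main fit did not pair them. Same-numbered libraries deviated with r of 0.041, 0.022 and 0.195, and the other combinations with r of -0.17 to 0.143. These values cannot settle whether the libraries are paired. The fit with the replicate block called 1772 genes higher and 1751 lower, 15 companion genes higher and 7 lower, and 5 of the 50 genes higher and 10 lower. GC correction with the replicate block gave 161 genes higher and 246 lower, 0 of the 50 higher and 1 lower (NASP), and 1 companion gene higher and 3 lower. Leaving out each library in turn gave 1 to 1722 genes higher and 0 to 1644 lower, 0 to 4 of the 50 higher and 0 to 10 lower, 0 to 12 companion genes higher and 0 to 8 lower, and a median of -0.06 to -0.03. With GC correction as well these were 0 to 293 and 0 to 375 genes (293 and 375 without SLNCR replicate 2, 45 and 56 without SLNCR replicate 3), 0 and 0 to 3 of the 50, 0 to 1 and 0 to 4 companion genes, and a median of -0.04 to -0.02. TK1 turned to 0.10 (loess, also with the replicate block), 0.09 (bins) and 0.07 (mean GC), HELLS to -0.08 (loess, bins and block) and -0.09 (mean GC), and GINS1 to -0.06 (bins). Leaving out a library without correction turned the sign of none of these genes, while the ranges with a library left out and GC correction were 0.08 to 0.13 for TK1 (0.12 without SLNCR replicate 3), -0.10 to -0.06 for HELLS, -0.10 to -0.03 for GINS1, -0.11 to -0.02 for WDHD1, -0.07 to -0.03 for RFC3, -0.09 to -0.01 for DSCC1 and 0.01 to 0.04 for DNMT1, each of the opposite sign to the reported value. Ranges of the opposite sign were also seen there for POLE (0.02 to 0.06), FEN1 (0.01 to 0.04), POLA1 (-0.13 to -0.02) and UNG (0.02 to 0.07). The cause of these changes was not tested. With 3 libraries per group, changes in genes counted as low as POLE2 are imprecise.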
